A study of Mus musculus with 6 samples.

Results

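Heat shock proteins and their cochaperones were examined as a list of 35 genes in undifferentiated R1 mouse embryonic stem cells. A gene was taken as measured if the array annotation gave it a probe set that names that gene alone, and its brightest probe set by mean over the 6 arrays stood for it. By this rule 33 of the 35 genes were measured, out of 18193 genes measured on the array. Hsp90ab1 and Hsf1 were not analysed here. In the knockdown cells a stable hairpin RNA (shRNA) was directed at Pcl2, a Polycomb-like protein encoded by Mtf2, and in the control cells a mismatch hairpin took its place. Each group had 3 Affymetrix mouse arrays. Both groups came from the same R1 line and, per the labels, were kept undifferentiated, in a serum medium that contained leukaemia inhibitory factor (LIF) at 1000 U/mL. The labels speak of a single Pcl2 shRNA clone, so the effect of the hairpin and that of the clone cannot be told apart. They call the 3 arrays of a group biological replicates without naming separate cultures, so p-values measure the spread between these samples.

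Heat shock proteins are molecular chaperones, which hold unfolded proteins in solution and help them reach or regain their fold. HSP70 proteins bind and release short hydrophobic stretches in a cycle driven by ATP. J-domain proteins start that cycle, HSP110 and BAG proteins exchange the nucleotide, and HSP90 takes over a set of client proteins such as kinases and steroid receptors. Small heat shock proteins bind unfolding clients without ATP. Under proteotoxic stress the heat shock factors, above all Hsf1, bind heat shock elements in the promoters of many of these genes. Mouse embryonic stem cells are known for high basal amounts of several constitutive chaperones.

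Values are MAS5 signals, a linear intensity per probe set. Changes are log2 fold changes of Pcl2 shRNA over mismatch control on the log2(signal + 7) scale, which understates changes of dim genes, each with a standard error (SE). The adjusted p-values are from limma, two-sided and adjusted over all 13095 genes tested, with 0.05 as the threshold. Signals of different probe sets are not on a common scale, so no gene's level is set against another's. In bulk RNA, fewer cells that express a gene and less RNA per cell cannot be told apart.

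The trimmed mean signal was 150.001 on each array, a value fixed by the scaling of the deposited signals, so it does not measure how alike the arrays were. The median signal was 28.5 on mismatch control replicate 2 and 33.2 to 33.9 on the other arrays. Mtf2, the target of the hairpin, gave signals of 1048, 1167 and 869.6 in Pcl2 shRNA cells, against 1951, 1513 and 1704 in mismatch control cells (log2 fold change -0.74, SE 0.17, adjusted p = 0.0157). The groups did not overlap, and the call was lost without Pcl2 shRNA replicate 3 (adjusted p = 0.0574). Without mismatch control replicate 1 another probe set became the brightest, and it gave -0.75 (adjusted p = 0.0519). All 7 embryonic stem cell markers (Pou5f1, Nanog, Sox2, Zfp42, Dppa5a, Utf1 and Tdgf1) were above background, a signal of 20.3, on all 6 arrays. All 7 had a log2 fold change above 0 (median 0.59), and 3 passed, Zfp42 at 1.32 (adjusted p = 0.00269), Tdgf1 at 0.89 (0.0132) and Sox2 at 0.76 (0.0186). Nanog, at 0.59, did not pass (adjusted p = 0.0888) but did with the replicate number as a block (0.0107). The part of these markers in the results on the heat shock genes was not tested. Of 12 fibroblast markers 8 passed the signal filter, and Postn, Pdgfra, Dcn and Lum did not. The summed signal of those 8 was 338 to 643 in Pcl2 shRNA cells and 464 to 1085 in mismatch control cells. The ratio of 3' to 5' Gapdh control probe sets was 0.7995 to 0.821 in Pcl2 shRNA cells and 0.807 to 0.823 in mismatch control cells.

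Of the heat shock genes, all 33 passed the signal filter, 4 fell (Cryab, Bag2, Hspa4l and Hspa1a), none rose and 29 did not pass. Over all genes tested 12.6% were called in either direction, 4.46% as higher and 8.16% as lower, and 4 of 33 is 12.1%, near that background. The median log2 fold change over the 33 genes was 0.06, and over all tested genes it was 0.02. At an unadjusted p under 0.05 there were 11 of the 33, against 3417 of all 13095 tested genes. The 3 arrays of one group did not overlap with those of the other for 13 of the 33 genes, 6 higher and 7 lower in Pcl2 shRNA cells, or 39.4%. Over all tested genes the share was 31.2%, with 14.5% higher and 16.7% lower. With the replicate number as a block, 12 of the 33 passed, 5 higher and 7 lower, or 36.4%. In that fit 23.8% of all genes passed, 9.97% higher and 13.8% lower. The count was 7 with array weights, 2 with the mean of a gene's probe sets, and 2 without Pcl2 shRNA replicate 2. Calls over all tested genes also rose with array weights and fell without that replicate.

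**Figure D1:**
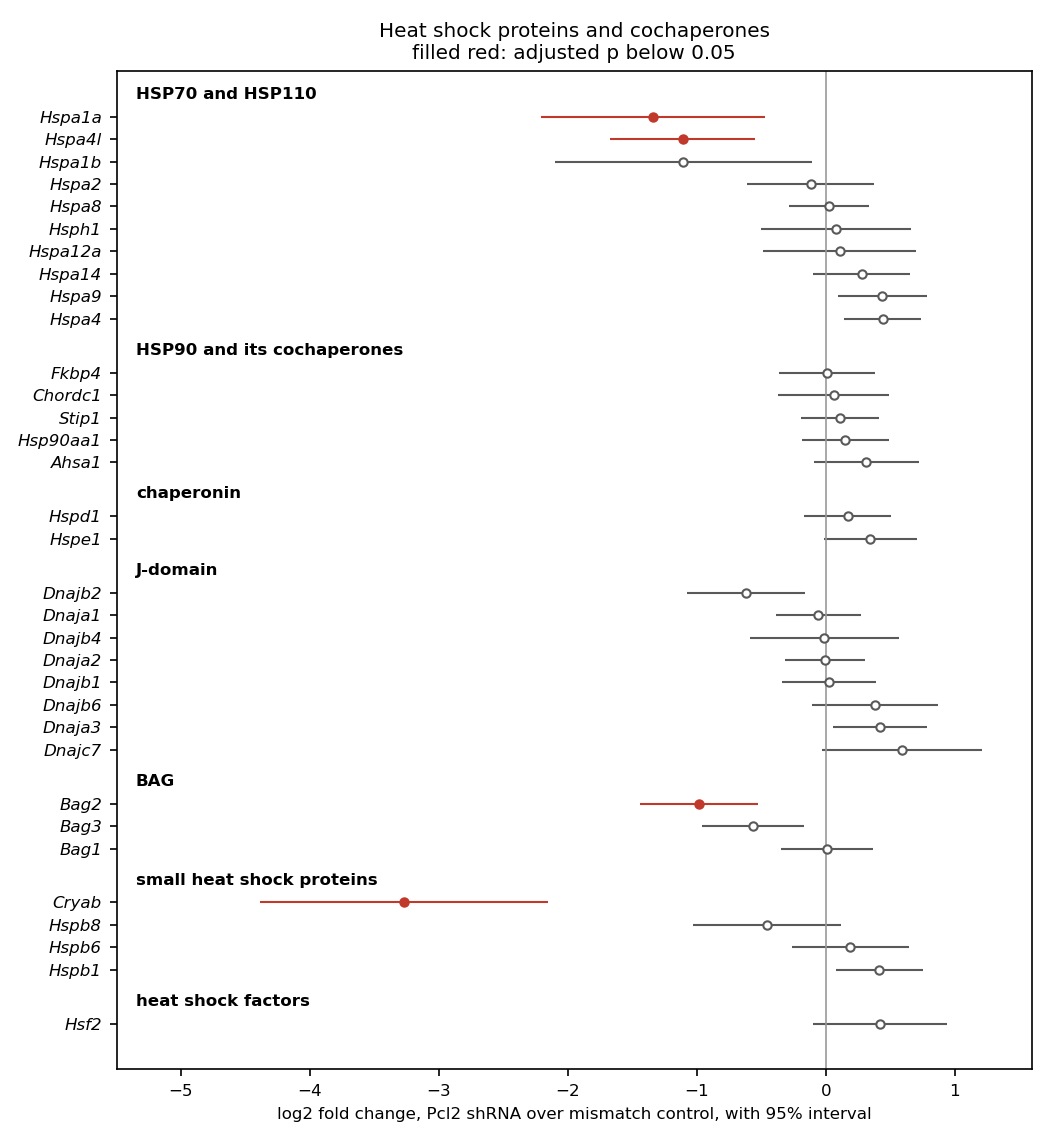
Log2 fold change of Pcl2 shRNA over mismatch control (x axis) for the 33 genes (y axis), grouped by chaperone class. Points are limma estimates from 3 arrays per group, bars are 95% intervals, and filled red points passed the threshold: Cryab at -3.27, Hspa1a at -1.34, Hspa4l at -1.11 and Bag2 at -0.98.

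Among the small heat shock proteins, Cryab fell the most of all 33 genes by log2 fold change. Cryab encodes alpha B-crystallin, a chaperone of lens and muscle that also binds intermediate filaments. Its signal was 33.8, 14.1 and 9.68 in Pcl2 shRNA cells, against 379, 90.4 and 335 in mismatch control cells. All 3 Pcl2 shRNA arrays lay below all 3 control arrays, only 1 of the 3 was above background, and control replicate 2 was the low one of its group. The log2 fold change was -3.27 (SE 0.50, adjusted p = 0.0024). A further probe set gave -3.29 with the same separation, and the remaining one was at or below background on all 6 arrays. The call held under all 19 alternatives that gave a value, between -3.90 and -2.69. Of the 8 fibroblast markers measured, all had a log2 fold change below 0 and Twist2 alone passed (adjusted p = 0.0122). With the replicate block Col1a1 (log2 fold change -1.83, adjusted p = 0.0039) and Col3a1 (-0.83, 0.0305) passed as well. The part of these markers in the Cryab result was not tested.

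Hspb2, which lies next to Cryab in the genome and encodes a small heat shock protein of muscle, gave signals of 38.7, 41.2 and 68.8 in Pcl2 shRNA cells, against 96.4, 57.2 and 258 in mismatch control cells. The groups overlapped, and Hspb2 did not pass (log2 fold change -1.13, SE 0.44, adjusted p = 0.133; adjusted p = 0.0108 with the replicate block). Hspb1, which encodes the widely expressed HSP27 homologue HSP25, gave 5331, 6159 and 6463 in Pcl2 shRNA cells, against 4016, 5061 and 4382 in mismatch control cells. Each Pcl2 shRNA array lay above each control array, and another probe set separated the groups the same way (0.53). The difference of 0.42 (SE 0.15) missed the threshold (adjusted p = 0.106), but not under the replicate block (0.0443) or array weights (0.0434).

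Hspb8, a partner of Bag3 in the autophagic clearance of misfolded proteins, gave 153, 205 and 260.2 in Pcl2 shRNA cells and 281, 203 and 380.0 in mismatch control cells. Its groups overlapped, its log2 fold change was -0.45 (adjusted p = 0.31), and its 3 probe sets ranged from -0.45 to 0.34. Hspb6, a small heat shock protein known from muscle, gave 0.19 with a 95% interval of -0.27 to 0.65.

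The HSP70 and HSP110 class held 10 measured genes, of which 2 fell and 8 did not pass. The called share was 20%, against 12.6% of all tested genes, in a class of only 10. Hspa4l encodes an HSP110 protein known from testis. Its signal was 43.0, 31.4 and 50.003 in Pcl2 shRNA cells, against 89.6, 77.4 and 128 in mismatch control cells. The groups did not overlap, and the log2 fold change was -1.11 (SE 0.25, adjusted p = 0.017). Of its other 4 probe sets, all gave values below 0, from -0.97 to -0.20, and 1 of them was above background on all arrays (-0.89). The call was lost with the mean of its probe sets (adjusted p = 0.063), without Pcl2 shRNA replicate 2 (0.081) and without mismatch control replicate 3 (0.0571).

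Hspa1a and Hspa1b encode the stress-inducible HSP70 and are neighbouring, near-identical genes. Probe sets for one can take up RNA of the other, so their values are not independent. Hspa1a gave 62.0, 40.6 and 29.0 in Pcl2 shRNA cells, against 232, 82.1 and 83.0 in mismatch control cells. Hspa1b gave 268, 227 and 132 in Pcl2 shRNA cells, against 1029, 294 and 279 in mismatch control cells. In both genes control replicate 1 stood far above the other control arrays, and every Pcl2 shRNA array lay below every control array. Hspa1a passed narrowly (log2 fold change -1.34, SE 0.39, adjusted p = 0.0495). Hspa1b did not pass (log2 fold change -1.10, SE 0.45, adjusted p = 0.147) except under the replicate block (0.00976).

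Without mismatch control replicate 1, Hspa1a gave -0.87 (adjusted p = 0.116) and Hspa1b -0.50 (adjusted p = 0.342). The Hspa1a call was also lost without Pcl2 shRNA replicate 2 (adjusted p = 0.13) or 3 (0.135) and under 5 settings that kept all arrays, with adjusted p up to 0.0911. The summed fibroblast markers were highest on the same control array, at 1085, against 464 and 568 on the other control arrays. Their part in the Hspa1a and Hspa1b values was not tested. The other Hspa1b probe sets gave -1.02 and -1.01, with overlapping groups.

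The stretches upstream of these genes are shown because the near-identity of the pair extends into them. They are the 150 bases before each RefSeq start (GRCm38.p6), Hspa1a at chr17:34972157-34972306 and Hspa1b at chr17:34959239-34959388, both on the minus strand and printed 5′ to 3′, and 149 of the 150 positions were identical. Capitals mark the only match in each to a pair of inverted heat shock element units (GAANNTTC or TTCNNGAA), at -104 to -97 from the start.
Hspa1a: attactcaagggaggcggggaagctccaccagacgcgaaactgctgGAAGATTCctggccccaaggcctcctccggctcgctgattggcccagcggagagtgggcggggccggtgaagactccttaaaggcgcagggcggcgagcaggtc
Hspa1b: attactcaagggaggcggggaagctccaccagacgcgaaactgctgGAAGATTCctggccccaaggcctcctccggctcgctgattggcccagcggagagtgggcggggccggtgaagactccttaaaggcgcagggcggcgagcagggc

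The constitutive HSP70 genes did not pass. Hspa8, which encodes the cytosolic HSC70, gave 8475, 7458 and 7929 in Pcl2 shRNA cells, against 7092, 8167 and 8179 in mismatch control cells. The groups overlapped and the log2 fold change was 0.03, with a 95% interval of -0.28 to 0.34. Hspa9, the mitochondrial HSP70, gave 3589, 3849.7 and 3973 in Pcl2 shRNA cells, against 2877, 3238 and 2364 in mismatch control cells. Its groups did not overlap, and its log2 fold change of 0.44 (SE 0.16) had an adjusted p of 0.0979, or 0.0482 with the replicate block. It also passed without mismatch control replicate 2 (adjusted p = 0.0466).

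Hspa4, an HSP110 protein that exchanges the nucleotide of HSP70, gave 3485, 3465 and 3349.5 in Pcl2 shRNA cells, against 2646, 2337 and 2610.4 in mismatch control cells. The groups were well apart on this probe set, and it gave 0.44 (log2 fold change, SE 0.13, adjusted p = 0.0592, or 0.0277 with the replicate block and 0.0327 with array weights). The probe sets of Hspa4 disagreed: the other 2 above background on all arrays gave -0.39 and -0.29, both with overlapping groups. The remaining Hspa4 probe set, above background on 4 of the 6 arrays, gave 1.48 with non-overlapping groups. Hsph1, a further HSP110 gene, gave 1534, 1294 and 858 in Pcl2 shRNA cells, against 1399, 1307 and 786 in mismatch control cells. The 2 groups ran side by side and the log2 fold change was 0.08, with a 95% interval of -0.50 to 0.66. Hspa14, a ribosome-associated HSP70, gave 0.28 (-0.10 to 0.65), and another of its probe sets above background on all arrays gave 0.83 with overlapping groups. The interval was -0.61 to 0.38 for Hspa2, known from the male germ line, and -0.49 to 0.70 for Hspa12a, a distant member of the family.

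**Figure D2:**
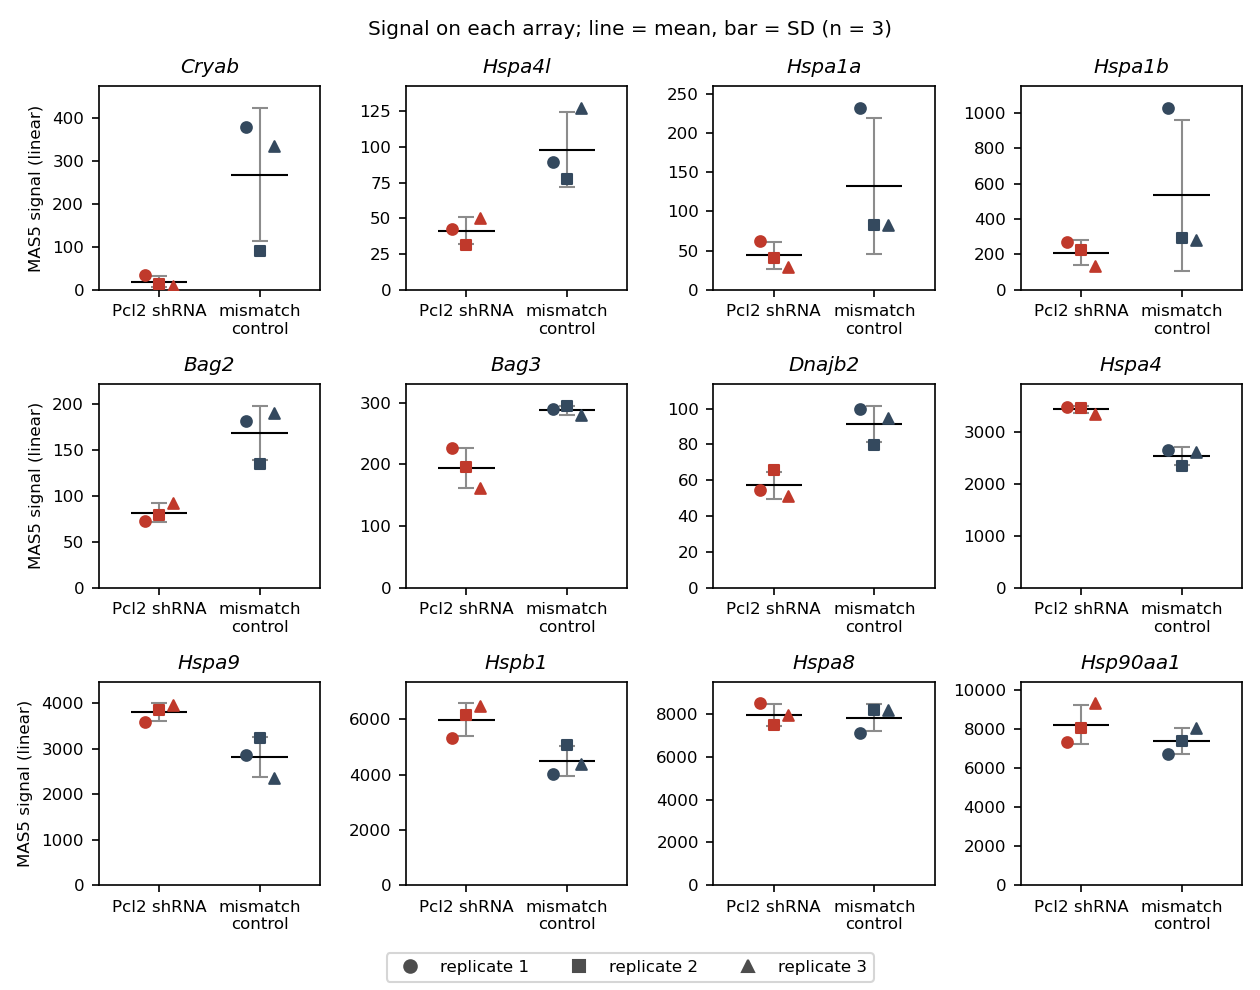
MAS5 signal (y axis, linear, from 0) on each array for 12 of the genes, Pcl2 shRNA in red and mismatch control in dark blue, with marker shapes for the replicate numbers, a line for the mean and a bar for the SD (n = 3). Cryab, Hspa4l and Bag2 separate into non-overlapping groups, control replicate 1 stands alone in Hspa1a (232) and Hspa1b (1029), and Hspa8 and Hsp90aa1 overlap.

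None of the 5 measured genes of HSP90 and its cochaperones passed, and by the unadjusted test at 0.05 none did either. With 12.6% of all tested genes called, none of 5 says little about the class. Hsp90aa1, the inducible cytosolic HSP90, gave 7316, 8045 and 9315 in Pcl2 shRNA cells, against 6707, 7386 and 8062 in mismatch control cells. The groups overlapped, with a log2 fold change of 0.15 and a 95% interval of -0.18 to 0.49. The interval was -0.19 to 0.41 for Stip1, which links HSP70 to HSP90, and -0.09 to 0.72 for Ahsa1, which stimulates the HSP90 ATPase. Chordc1, an HSP90-binding protein, gave an interval of -0.37 to 0.49. Fkbp4, an immunophilin of steroid receptor complexes, had -0.37 to 0.38 by its brightest probe set (log2 fold change 0.01), while another gave 0.51 with non-overlapping groups.

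The mitochondrial chaperonin consists of Hspd1 (HSP60) and its lid Hspe1 (HSP10), which neighbour each other. Hspd1 gave 6237, 6627 and 6304 in Pcl2 shRNA cells, against 5403, 6718 and 5048 in mismatch control cells, and the groups overlapped (log2 fold change 0.17, 95% interval -0.17 to 0.51). Hspe1 gave 4164, 4076 and 4737 in Pcl2 shRNA cells, against 2856, 4009 and 3411 in mismatch control cells. Its groups did not overlap, with a narrow gap to control replicate 2, and the log2 fold change of 0.35 (SE 0.16) did not pass (adjusted p = 0.21).

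No J-domain gene of the 8 measured passed, where 12.6% of all tested genes were called. Dnajb2, a chaperone best known from neurons, had the lowest value of the 8, with signals of 54.3, 65.8 and 51.1 in Pcl2 shRNA cells, against 99.5, 79.8 and 94.8 in mismatch control cells. The groups did not overlap, and the log2 fold change of -0.62 (SE 0.21) had an adjusted p = 0.0787. Of the 19 alternatives that gave a value, the replicate block (0.0451) and median centring (0.048) brought Dnajb2 past the threshold. Dnaja3, the J-domain partner of the mitochondrial HSP70, gave 562, 548 and 502 in Pcl2 shRNA cells, against 414, 453 and 338 in mismatch control cells. These groups did not overlap either, and the log2 fold change of 0.42 (SE 0.16) had an adjusted p of 0.13, or 0.0355 with the replicate block.

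Dnajc7, which binds both HSP70 and HSP90, gave 1776, 1676 and 1366 in Pcl2 shRNA cells, against 1469.8, 1269 and 630.2 in mismatch control cells. The groups overlapped, control replicate 3 was the lowest array, and the log2 fold change of 0.59 (SE 0.28) had an adjusted p of 0.211, or 0.0287 with the replicate block. Without that control array it was 0.22 (adjusted p = 0.507). Dnajb6, a suppressor of protein aggregation, gave 0.38 (95% interval -0.11 to 0.87). Its 4 probe sets ranged from 0.21 to 0.52, and only the highest had non-overlapping groups. The other 4 J-domain genes lay near 0. Dnajb1, the stress-inducible HSP40, gave 747, 606 and 646 in Pcl2 shRNA cells, against 663, 569.7 and 734 in mismatch control cells, with an interval of -0.34 to 0.39. The interval was -0.39 to 0.27 for Dnaja1, -0.32 to 0.30 for Dnaja2 and -0.59 to 0.57 for Dnajb4, all cytosolic HSP40 proteins.

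Of the 3 BAG genes, whose proteins bind the ATPase domain of HSP70, 1 fell. Over all tested genes 12.6% were called, and 3 genes are too few to set a share beside that. Bag2, which inhibits the ubiquitin ligase Stub1, gave 72.2, 79.4 and 92.6 in Pcl2 shRNA cells, against 181, 135 and 190.0 in mismatch control cells. The groups were well apart, and the log2 fold change was -0.98 (SE 0.20, adjusted p = 0.011). The Bag2 call held under all 20 alternatives, with values from -1.13 to -0.88 and adjusted p up to 0.0499. Bag3, the stress-induced member that works with Hspb8, gave 227, 195 and 161 in Pcl2 shRNA cells, against 289.8, 294 and 279.5 in mismatch control cells. Its groups did not overlap, and its log2 fold change of -0.56 (SE 0.18) had an adjusted p = 0.0654. Under the replicate block (0.0179) and array weights (0.0403) it did pass. Bag1 gave 746, 606 and 666 in Pcl2 shRNA cells, against 744, 584 and 678 in mismatch control cells, and its log2 fold change was 0.01 with a 95% interval of -0.35 to 0.37.

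Hsf2 was the only heat shock factor of the list that was measured. Hsf2, which acts in development and forms trimers with Hsf1, gave 41.2, 38.8 and 39.95 in Pcl2 shRNA cells, against 21.8, 30.4 and 32.9 in mismatch control cells. The groups did not overlap, but the signals were close to background, and the log2 fold change of 0.42 (SE 0.23) did not pass (adjusted p = 0.295). The highest unspiked bacterial signal was 18.0 to 20.3 on Pcl2 shRNA arrays and 11.2 to 12.1 on control arrays. The part of this difference in the Hsf2 values was not tested. Its other probe set was at or below background on all arrays.

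Arrays with the same replicate number shared some of their deviations in these genes. Over the 33 genes, deviations from the group means correlated at 0.73, 0.37 and 0.60 between arrays numbered 1, 2 and 3, against 0.39, 0.25 and 0.40 over all 13095 tested genes. Between arrays of different numbers the values over the 33 genes ran from -0.77 to 0.22. These are correlations across genes, which are not independent, and deviations within a group sum to 0, so a positive value for one pairing lowers the others. Hsph1 is an example, with its lowest signal on replicate 3 of both groups (858 and 786). The order of the 3 arrays was the same in both groups for 9 of the 33 genes (27.3%), against 29% of all genes.

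**Figure D3:**
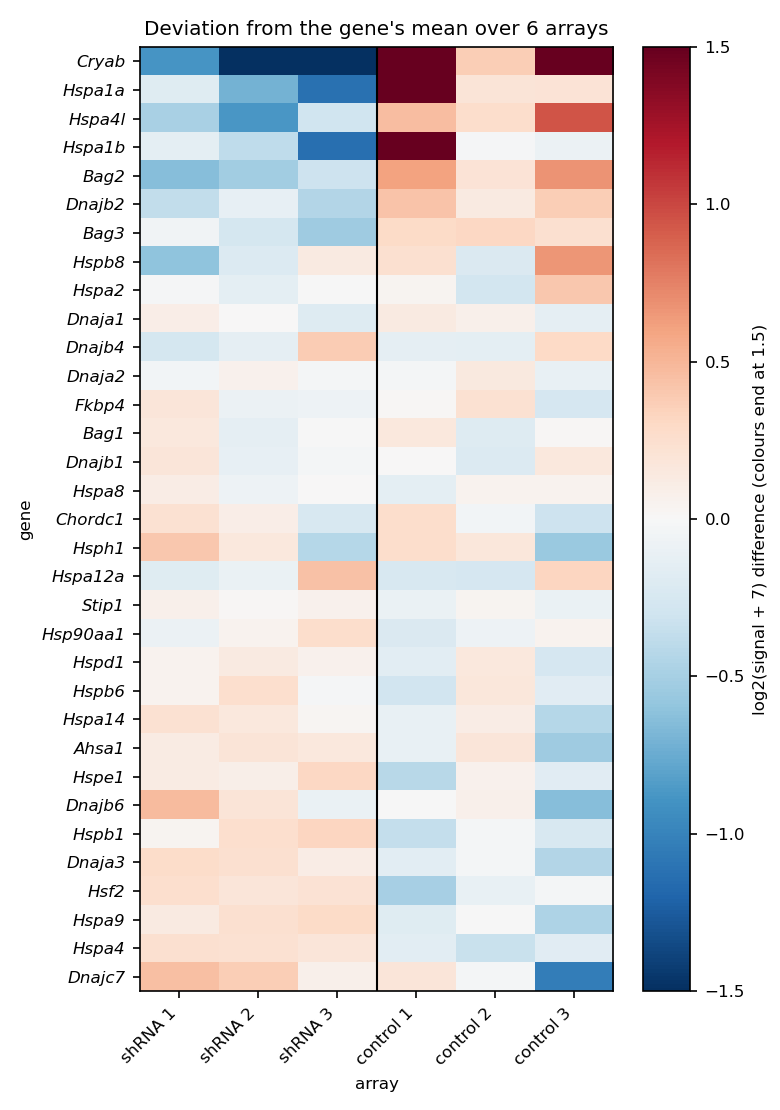
Deviation of log2(signal + 7) from each gene's mean over the 6 arrays (colour) for the 33 genes (rows, ordered by log2 fold change) and the 3 Pcl2 shRNA and 3 mismatch control arrays (columns), with colours ending at 1.5 either way. The top rows are blue on the left and red on the right, with control 1 darkest in Hspa1a and Hspa1b, and the bottom rows show the opposite, paler pattern, down to Dnajc7.

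Heat shock elements were looked for in RefSeq promoter windows of 250 bases before to 50 after a start, which 29 of the 35 genes had in the table used. Hspa8, Hspa9, Cryab, Hsp90aa1, Hsp90ab1 and Hsf1 had no entry there. The first motif was a pair of inverted units, GAANNTTC or TTCNNGAA, each its own reverse complement, so that both strands were covered. The second added a further inverted unit after 2 bases, and so contains the first, and a longer run also counts. The pair was found for 14 of the 29 genes (48.3%), against 17.0% of the 27025 genes in the table. A run of 3 or more units was found for 5 genes (17.2%), against 0.662% of all genes. A match is a description of letters and not a measured binding site.

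The sites with 3 or more joined units are shown, since they are the longest runs found in the list, with 2 sites of Hspb1 beside them. The run has 4 units in the site shared by Hspe1 and Hspd1, 5 in that of Chordc1, and 3 in those of Dnajb6 and Hsph1. The site of Hspe1 (chr1:55088053-55088082, plus strand) is the same stretch as that of Hspd1, read from the other strand, and lies 89 to 72 bases before the Hspe1 start. That of Dnajb6 is at chr5:29735844-29735872 (plus strand), that of Hsph1 at chr5:149636280-149636308 (minus strand) and that of Chordc1 at chr9:18292260-18292288 (plus strand). The Hspb1 sites are at chr5:135887791-135887820 and chr5:135887811-135887840 (plus strand). Each is printed 5′ to 3′ from GRCm38.p6, and capitals mark the joined units.
Hspe1: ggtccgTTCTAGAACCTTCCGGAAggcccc
Hspd1: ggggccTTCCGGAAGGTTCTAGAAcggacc
Dnajb6: agctccgaGAATCTTCCGGAAcgctagac
Hsph1: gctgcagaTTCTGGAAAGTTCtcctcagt
Chordc1: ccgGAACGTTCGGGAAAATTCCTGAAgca
Hspb1, first site: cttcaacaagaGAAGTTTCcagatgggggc
Hspb1, second site: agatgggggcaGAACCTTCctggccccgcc

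None of the 5 genes with 3 or more units passed, by limma or by an unadjusted p under 0.05. Their log2 fold changes were 0.35 for Hspe1, 0.17 for Hspd1, 0.38 for Dnajb6, 0.08 for Hsph1 and 0.06 for Chordc1. Of the 9 genes with the pair alone, Hspa1a fell and the range was -1.34 to 0.42. Of the 15 without either motif in the window, Hspa4l and Bag2 fell and the range was -1.11 to 0.59. Over all tested genes 12.6% were called, so counts this small do not tell the motif groups apart. The medians were 0.17 with 3 or more units, -0.06 with the pair alone and 0.11 with neither.

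Chaperone genes outside the list were set beside it. Of the 14 genes of the cytosolic chaperonin TRiC and of prefoldin, which folds actin and tubulin with it, Cct7 fell and 13 did not pass. The called share was 7.14%, against 12.6% of all tested genes. Cct7 gave 2515, 2538 and 2795 in Pcl2 shRNA cells, against 3697, 4282 and 4174 in mismatch control cells (log2 fold change -0.63, SE 0.14, adjusted p = 0.0147), and the groups were well apart. The call was lost without Pcl2 shRNA replicate 1 (adjusted p = 0.0661) or 2 (0.0858). The other subunits of TRiC gave 0.07 for Tcp1 up to 0.34 for Cct6a, and the median of the list was 0.11.

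Of 23 further HSP70 and HSP90 chaperones and cochaperones, 2 rose and 21 did not pass, or 8.7% called against 12.6% of all tested genes. Cdc37l1, a relative of the kinase cochaperone Cdc37, gave 489, 497 and 511 in Pcl2 shRNA cells, against 291, 287 and 264 in mismatch control cells (log2 fold change 0.82, SE 0.15, adjusted p = 0.00565). Sugt1, an HSP90 cochaperone of the kinetochore, gave 3026, 2741 and 2340.1 in Pcl2 shRNA cells, against 2061, 1808 and 1538 in mismatch control cells. It rose by 0.58 (SE 0.17, adjusted p = 0.0444). The groups did not overlap in either gene, and the Sugt1 call was lost under 8 of the 20 alternatives, with adjusted p up to 0.158. The median of the list was -0.03.

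Among 31 further J-domain genes, 2 rose, 1 fell and 28 did not pass, or 9.68% called against 12.6% of all tested genes. Dnajc6, the neuronal auxilin that uncoats clathrin vesicles, gave 372, 446 and 489 in Pcl2 shRNA cells, against 185, 159 and 144 in mismatch control cells (log2 fold change 1.38, SE 0.18, adjusted p = 0.000996). Dnajb9, a cochaperone of the endoplasmic reticulum, gave 795, 718 and 783 in Pcl2 shRNA cells, against 467, 507 and 412 in mismatch control cells (log2 fold change 0.72, SE 0.15, adjusted p = 0.0112). The groups were apart in both. Dnajb12, a membrane protein of the endoplasmic reticulum, gave 118, 115 and 132 in Pcl2 shRNA cells, against 257, 249 and 233 in mismatch control cells (log2 fold change -0.98, SE 0.17, adjusted p = 0.00428), and its call was lost with the mean of its probe sets (-0.51, adjusted p = 0.0576). With the replicate block 10 of the 31 passed, 4 higher and 6 lower, or 32.3%, against 23.8% of all tested genes in that fit. With array weights 6 of the 31 passed, in a fit that also called more of all tested genes.

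Of 6 further small heat shock proteins 3 passed the signal filter, none passed by limma, 1 had an unadjusted p under 0.05, and Hspb2 passed with the replicate block, with array weights (adjusted p = 0.04999) and without mismatch control replicate 2 (0.037). Hspb11, an intraflagellar transport protein once named as a small heat shock protein, gave 116, 90.2 and 144 in Pcl2 shRNA cells and 142, 128 and 235 in mismatch control cells (adjusted p = 0.294). Among 11 other genes of proteotoxic and oxidative stress, Atf3 fell and 10 did not pass, or 9.09% called against 12.6% of all tested genes. Atf3, a transcription factor induced by many stresses, gave 50.4, 69.5 and 68.1 in Pcl2 shRNA cells, against 165, 402 and 162 in mismatch control cells, with control replicate 2 the highest array (log2 fold change -1.72, SE 0.33, adjusted p = 0.00681). Its call held under all 20 alternatives. The other 10, the metallothioneins Mt1 and Mt2 and the heme oxygenase Hmox1 among them, lay between -0.36 and 0.25.

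**Figure D4:**
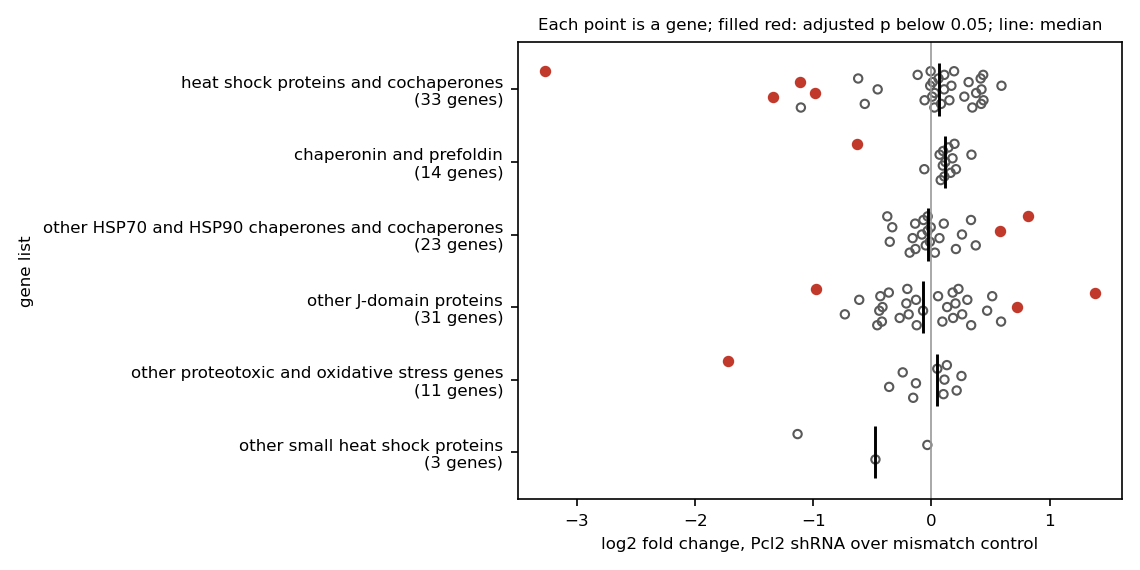
Log2 fold change of Pcl2 shRNA over mismatch control (x axis) for each gene (points) of the heat shock list and of 5 related lists (y axis). Filled red points passed the threshold and black lines are medians; the heat shock list has its 4 called genes on the left, and the medians lie between -0.47 and 0.11.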

How the data were processed

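RNA from 6 samples was hybridised to 6 Affymetrix mouse arrays. The authors deposited 1 linear intensity for each probe set. It is a MAS5 signal per the submitters' processing notes, and the scans were analysed in GCOS 1.4 per the labels. Their scaling was kept. The build is not given in the sources used here. Of 45101 probe sets 34945 named 1 gene, and symbols were updated through RefSeq (GRCm38.p6).

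The deposited signals were turned here into log2(signal + 7), 7 being the 20th percentile of all values. Probe sets at or above the 40th percentile of mean log2 signal were kept (23186), and the brightest stood for each of 13095 genes. Groups were compared with limma 3.58.1 in R 4.3.3 (lmFit, eBayes with trend), with Benjamini-Hochberg adjustment over all 13095. The procedure was tested on simulated data. Background is the highest signal of the 27 unspiked bacterial probe sets on any array, and it came from a Pcl2 shRNA array. The labels give both groups replicate numbers 1 to 3 without naming a shared culture or day. Same-numbered arrays' deviations correlated at 0.39, 0.25 and 0.40, so by these data alone the numbers may pair the samples. The reported estimates and p-values come from the fit without the pairing. For a named gene whose call differs with the replicate block, that adjusted p is printed too. Each of 18 alternatives changed 1 choice, and 2 more were added after the data were seen (the brightest probe set by linear mean, and a floor at background). The number of arrays limits the precision.

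The genes and lists were chosen with earlier results of these data known. The text names every gene of the heat shock list, Mtf2, the markers, and from each related list up to 4 called genes, or the 2 brightest where none was called; Tcp1, Cct6a, Mt1, Mt2 and Hmox1 were named after their values were seen.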

Additional observations from a re-analysis of the deposited data

How the results depend on the processing

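Over the 33 heat shock genes and 20 alternatives there were 652 values, of which 593 values kept their direction and side of the threshold, 13 values (8 genes) newly passed, 11 values (Hspa1a and Hspa4l) no longer passed, and 35 values (12 genes, none called) changed sign. With the replicate block, 12 heat shock genes passed (5 higher, 7 lower), as did 3113 of all genes (1305 higher, 1808 lower), 10 further J-domain genes and 1 further small heat shock protein. With array weights, 7 heat shock genes passed, 2 of them higher, the count of all tested genes higher was 885, and 6 further J-domain genes and 1 further small heat shock protein passed. With the mean of probe sets, 2 heat shock genes passed, both lower, as did 1606 of all genes. Of the further HSP70 and HSP90 genes, 1 passed with median centring, no signal filter, the mean of probe sets or eBayes without trend. Leaving out 1 array gave 2 to 5 heat shock genes called, 0 to 1 higher and 2 to 4 lower, and 979 to 1598 of all genes, 261 to 577 of them higher. Likewise 0 to 2 chaperonin and prefoldin genes, 1 to 2 further HSP70 and HSP90 genes and 0 to 1 further small heat shock proteins passed, and Mtf2 lay between -0.84 and -0.63. Without Pcl2 shRNA replicate 2, 979 of all genes and 2 heat shock genes passed.

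Signs turned in genes near 0. Quantile normalization gave -0.0168 for Hsp90aa1, -0.123 for Hspa8, -0.0097 for Bag1 and -0.0352 for Fkbp4. Median centring gave -0.0326 for Hspa8, -0.0343 for Dnajb1, -0.0491 for Bag1 and -0.0532 for Fkbp4. Array weights gave -0.0389 for Dnajb1, -0.0822 for Bag1, 0.0266 for Dnaja2 and -0.0441 for Fkbp4. The mean of probe sets gave 0.0018 for Dnaja2 and 0.164 for Dnajb4. With 1 array left out the ranges were -0.282 to 0.0553 for Hspa2, -0.0862 to 0.297 for Hspa12a, -0.137 to 0.0222 for Dnaja1, -0.0814 to 0.21 for Chordc1, -0.177 to 0.318 for Hsph1 and -0.0411 to 0.0725 for Hspa8. They were -0.0706 to 0.11 for Dnajb1, -0.0826 to 0.09 for Bag1, -0.0627 to 0.0631 for Dnaja2, -0.205 to 0.138 for Dnajb4 and -0.119 to 0.125 for Fkbp4. The cause was not tested. The other 8 values do not exist. One setting left out all probe sets with names ending in _a_at, _s_at or _x_at. Under it Cryab, Dnaja3, Dnajb2, Hspb1 and Hsph1 had no probe set past the signal filter. Dnajb4, Hsf2 and Hspa12a were under the 60th percentile filter. Without mismatch control replicate 3, Dnajc7 gave 0.22, Hspb8 -0.24, Dnajb6 0.15, Ahsa1 0.13 and Hspa14 0.14. Without mismatch control replicate 1, Hspe1 gave 0.22 and Hsf2 0.28. Signals near background limit Cryab and Hsf2. They also limit Dnajb4 and Hspa12a and, in Pcl2 shRNA cells, the called genes Hspa4l and Hspa1a.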
